A study of Mus musculus with 7 samples.

Results

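The broad distal HDAC1 peaks were the rows of the deposited HDAC1 peak list that were at least 800 bp long and stayed clear of the start of every transcript in the GENCODE M21 basic annotation, with a window around each transcription start site (TSS) that took in 2 kb of upstream sequence and 1 kb of downstream sequence. They numbered 352 of 15347 peaks (2.29%). They were thus selected on measured values, their length and position, and neither is a result. Both the length of a peak and its row in the list, used here as its rank, come from the enrichment that the authors called, so rank is given as a description as well. The remaining peaks served as a frame: 3522 short distal peaks, 3729 broad peaks at a TSS and 7744 short peaks at a TSS. The HDAC1 ChIP-seq was done on wild-type limb buds, forelimbs and hindlimbs pooled, from Swiss Webster embryos at E11.5 with 40 to 44 somites, with an Abcam antibody against HDAC1. There were 4 HDAC1 ChIP samples and 3 input samples, each labelled as limb buds of 3 litters, with no mutant, no treatment and no second tissue. A single table of peak coordinates was deposited for all of them, with no height, read number or value for a sample in it. A fold change and false discovery rate for each peak, which the study lists in its supplementary material, were not used here. No peak has a replicate error, the depth behind a peak is not known from the list, and no test between samples was possible. Each interval printed beside a share is a 95% Wilson interval. It treats regions as the units counted, covers counting error only, and does not stand in for biological replicates. Pooled limb buds hold mesenchyme, ectoderm, muscle precursors and blood, and the list does not say in which of these cells HDAC1 was bound.

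HDAC1 is a histone deacetylase. It removes acetyl groups from lysines of histone tails and works as the catalytic subunit of the SIN3, NuRD and CoREST complexes, which DNA-binding proteins bring to chromatin. ChIP-seq recovers the DNA near the protein, also where HDAC1 touches it only through such a complex. In most tissues HDAC1 is found at active promoters, which in mammals mostly lie in CpG islands, stretches in which the dinucleotide CG has escaped the loss it suffers elsewhere. Away from promoters HDAC1 is found at enhancers, DNA elements that raise transcription of a gene from a distance. Developmental genes in the limb bud, among them the T-box, LIM-homeobox and HOX genes, have many such elements around them.

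The central 300 bp of 4 peaks show how different the broad distal sites were in sequence. They were the best-ranked peak inside a coding exon, an intron, a noncoding gene and between genes. Capitals mark CG dinucleotides, and all are the plus strand of mm10. The windows are chr14:21985100-21985399 in Zfp503, chr4:151604700-151604999 in intron 3 of Camta1, chr7:142548200-142548499 in the noncoding gene Nctc1 near Mrpl23, and chr2:38418025-38418324 between genes near Lhx2.
Zfp503: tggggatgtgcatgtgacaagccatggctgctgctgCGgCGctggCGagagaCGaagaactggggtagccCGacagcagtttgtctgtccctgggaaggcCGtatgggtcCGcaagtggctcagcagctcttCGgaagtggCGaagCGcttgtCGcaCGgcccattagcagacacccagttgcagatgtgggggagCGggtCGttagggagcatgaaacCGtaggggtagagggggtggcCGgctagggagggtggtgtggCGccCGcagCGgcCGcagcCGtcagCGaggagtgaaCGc
Camta1: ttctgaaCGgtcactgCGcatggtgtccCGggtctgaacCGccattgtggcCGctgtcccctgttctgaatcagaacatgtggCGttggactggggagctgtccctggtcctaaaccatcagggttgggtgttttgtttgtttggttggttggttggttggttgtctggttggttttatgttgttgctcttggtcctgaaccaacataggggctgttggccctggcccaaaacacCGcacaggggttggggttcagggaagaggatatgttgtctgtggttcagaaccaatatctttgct
Mrpl23: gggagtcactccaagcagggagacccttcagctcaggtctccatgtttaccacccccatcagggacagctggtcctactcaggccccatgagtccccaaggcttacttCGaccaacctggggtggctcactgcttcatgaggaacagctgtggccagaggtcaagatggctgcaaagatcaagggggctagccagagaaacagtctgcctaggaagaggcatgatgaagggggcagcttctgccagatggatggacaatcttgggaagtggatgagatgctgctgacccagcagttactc
Lhx2: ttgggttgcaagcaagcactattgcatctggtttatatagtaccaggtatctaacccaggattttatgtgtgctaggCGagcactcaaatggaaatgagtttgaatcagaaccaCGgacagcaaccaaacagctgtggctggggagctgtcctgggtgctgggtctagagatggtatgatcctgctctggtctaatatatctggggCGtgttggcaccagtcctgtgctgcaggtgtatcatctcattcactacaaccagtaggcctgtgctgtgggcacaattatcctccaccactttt
The Zfp503 window held 23 CG dinucleotides, the Camta1 window 7, the Lhx2 window 3 and the Mrpl23 window 1. Their GC content was 64.7%, 52.7%, 48.7% and 56.3% in the same order. The 2 windows that follow were chosen after their values were seen, as the best-ranked broad distal peaks at Bcor, the gene with the most of them, and at Tbx5. They are chrX:12136850-12137149 in intron 1 of Bcor and chr5:119804225-119804524 upstream of Tbx5, with capitals for CG as before.
Bcor: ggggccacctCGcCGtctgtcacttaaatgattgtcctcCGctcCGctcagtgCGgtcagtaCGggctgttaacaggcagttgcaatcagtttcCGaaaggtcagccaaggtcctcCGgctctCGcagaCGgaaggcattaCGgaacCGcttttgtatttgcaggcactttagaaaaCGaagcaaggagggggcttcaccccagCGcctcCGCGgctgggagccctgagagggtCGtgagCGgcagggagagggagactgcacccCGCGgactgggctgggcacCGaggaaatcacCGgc
Tbx5: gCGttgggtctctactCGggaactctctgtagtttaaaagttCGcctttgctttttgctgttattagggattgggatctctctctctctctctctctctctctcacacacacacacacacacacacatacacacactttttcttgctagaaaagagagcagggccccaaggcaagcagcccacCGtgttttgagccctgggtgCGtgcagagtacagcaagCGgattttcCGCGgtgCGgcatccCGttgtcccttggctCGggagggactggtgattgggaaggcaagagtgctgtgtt
The Bcor window held 22 CG dinucleotides at a GC content of 61.3%, close to the Zfp503 window. The Tbx5 window held 11, with a run of CT and CA repeats.

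The broad distal peaks had a median length of 1000 bp, with quartiles of 850 and 1300 bp and a longest peak of 6400 bp. Just under the 800 bp limit, 71 distal peaks were 750 bp long, the best-ranked at rank 403 in an intron near Atoh8, while 51 members were exactly 800 bp long, the best-ranked at rank 295 in an intron near Dysf. Their median ranks were 6661 and 5881. At the limit set by the TSS windows, the Msx1 peak lay 17 bp outside a window, the Id2 peak 60 bp and the Neurod2 peak 99 bp. The broad peaks at Hoxc11, Mab21l2 and Gpsm3 reached 28, 34 and 44 bp into one and were not members. Of the peaks nearest to the limit, 3 members lay less than 100 bp outside a window and 10 broad peaks reached less than 100 bp into one.

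The median rank of the broad distal peaks was 3941, with quartiles of 1909 and 6632. Of them, 172 (48.9%) were in the first 3836 rows of the list and 12 (3.41%) in the last 3836. The median rank of broad peaks at a TSS was 2547 and that of short distal peaks 10842. Among the first 500 peaks of the list, 25 (5%) were broad distal, and of the 7347 lowest-ranked peaks 62 (0.844%) were. A CpG island, as defined later, was held by 17 of the 25 and by 33 of the 62 (53.2%). The best-ranked lay at rank 2, a peak of 1100 bp in intron 3 of Camta1, which encodes a calmodulin-binding transcription activator, 256270 bp from the nearest coding TSS. Rank 9 was a 6400 bp peak over the coding exon of Zfp503, a zinc-finger corepressor gene, and rank 12 was an 850 bp peak over the untranslated exon of Tas1r3, a taste receptor gene. Rank 21 lay in intron 3 of Tmc2, rank 25 between genes 66891 bp from the TSS of Lhx2, and rank 37 between genes 33448 bp from Foxk1. Ranks 146, 183 and 262 were nearest to Oma1, Pqlc1 and Tln2. The Oma1 peak lay inside another coding gene, Dab1, and the Pqlc1 peak inside Kcng2. The lowest-ranked members were at Ltbp1 (14365), Ccdc171 (14374) and Wdr11 (15290). Tas1r3 and Tmc2 are genes of taste and hearing, and neither had an HDAC1 peak at its own promoter. The genes named for the best ranks thus ranged from sensory genes to Lhx2, a LIM-homeobox gene of limb mesenchyme.

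The 10 longest members were nearest to Zfp503 (6400 bp), Tbx5 (3750 and 2600 bp), Hoxa11 (3450 bp), Gsx1 (3300 bp), Kdm6b (2900 bp), Lhx9 (2650 bp), Shox2 (2600 bp), Sox9 (2450 bp) and Scrt1 (2450 bp). Among these genes, Tbx5 starts the forelimb, Hoxa11 patterns the forearm segment, Shox2 is needed for the upper arm bone, and Sox9 is the master gene of cartilage. Kdm6b encodes a demethylase of H3K27. Their ranks ran from 9 to 2539. Several of them continued the peak over their own promoter: the gap to the next peak, one at a TSS, was 250 bp at Zfp503, 150 bp at Sox9, 250 bp at Scrt1, 150 bp at Kdm6b, 50 bp at Lhx9 and 50 bp for the intronic Tbx5 peak. Over all 352, 148 (42.0%, interval 37.0 to 47.3%) had another peak within 1000 bp, and in 43 (12.2%) that peak was at a TSS. Of the short distal peaks 33.4% had another peak within 1000 bp and in 9.63% it was at a TSS.

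**Figure D1:**
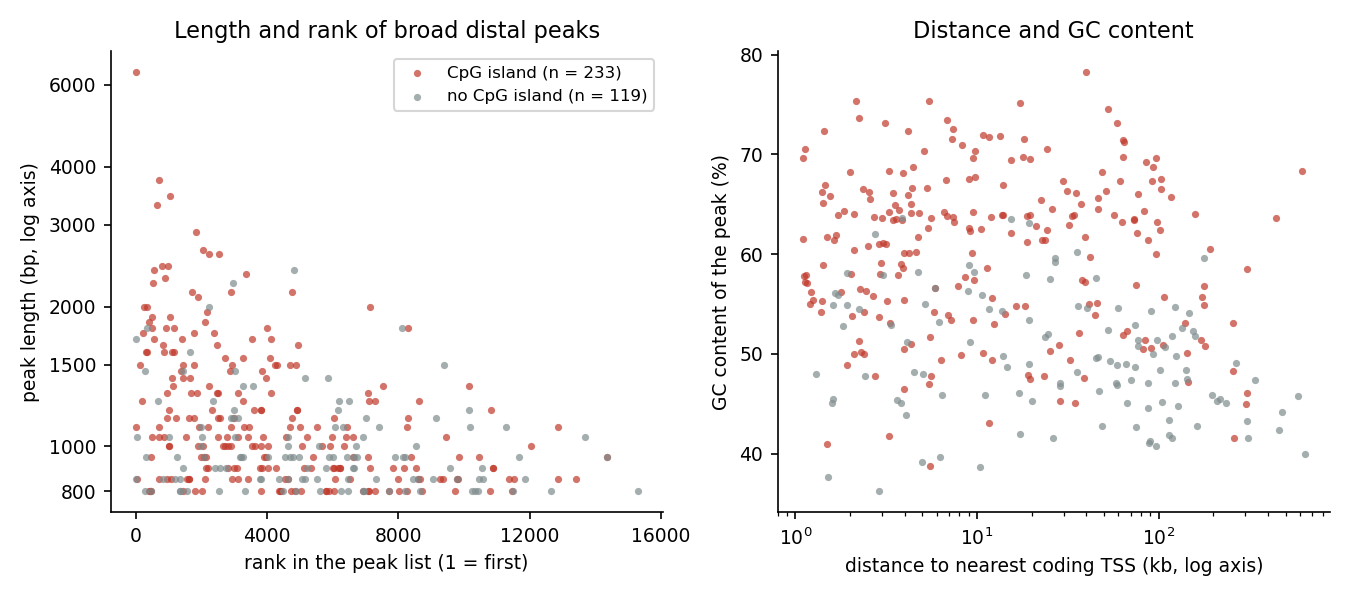
Each point is 1 of the 352 broad distal peaks, coloured by whether it held a CpG island. Left, peak length (bp, log axis) against rank in the list; right, GC content (%) of the whole peak against distance to the nearest coding TSS (kb, log axis). The longest peak, 6400 bp at rank 9, is at Zfp503, and the 119 peaks with no island lie lower in GC content, with a median of 49.0%.

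The position of each peak in genes was read from the feature under its midpoint. A coding exon lay under 59 broad distal peaks (16.8%, interval 13.2 to 21%), an untranslated exon under 18 (5.11%), an intron of a coding gene under 146 (41.5%, interval 36.4 to 46.7%), a noncoding gene under 18 (5.11%) and none of these under 111 (31.5%, interval 26.9 to 36.6%). Of the short distal peaks, 6.98% (interval 6.19 to 7.87%) lay over a coding exon and 37.6% (interval 36.0 to 39.2%) between genes. Coding exons take up 1.17% of the bases that lie outside all TSS windows and the space between genes 54.8%. The share over coding exons was thus higher among broad than among short distal peaks, with intervals that did not meet, and the intergenic intervals met narrowly. The coding exon members sat close to a start, at a median of 3864 bp from a coding TSS, against 17181 bp for those in introns and 46122 bp for those between genes. They included single-exon or short transcription factor genes: Zfp503, Sox9, Scrt1, Lhx9, Dlx2, Evx2, Sp9, Irx5, Tbx3, Tbx1, Lbx1 and Hic1. Of the 146 intronic members, 130 lay in an intron of a coding transcript, and 65 of these (50%, interval 41.5 to 58.5%) in the first intron. The first-intron share of short distal peaks was 47.4%, inside that interval. In all, 174 members (49.4%) lay in their nearest coding gene and 49 (13.9%, interval 10.7 to 17.9%) in a coding gene other than the nearest, against 9.88% of short distal peaks.

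**Figure D2:**
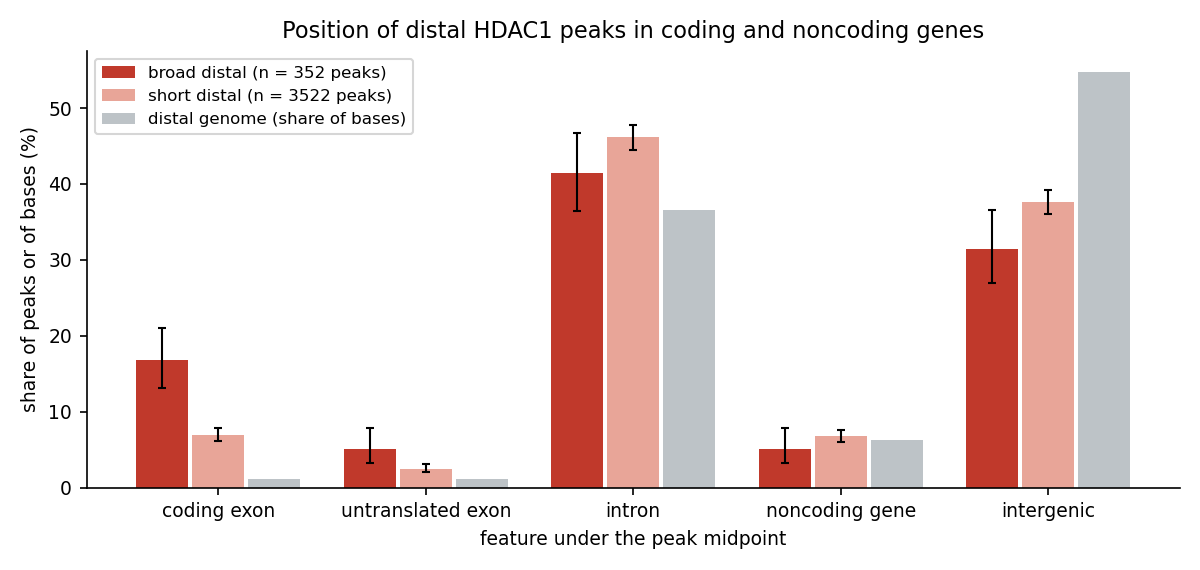
Share (%) of the 352 broad distal and 3522 short distal peaks by the feature under the peak midpoint, with 95% Wilson intervals as error bars, beside the share of bases of the genome outside TSS windows. Coding exons lie under 16.8% of broad and 6.98% of short distal peaks and take up 1.17% of those bases.

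Distances were measured from the nearest edge of a peak to the nearest TSS of a coding transcript. The median of the broad distal peaks was 14434 bp, with quartiles of 3912 and 64900 bp, and that of the short distal peaks was 26036 bp. With TSS windows of 5 kb on both sides the medians were 36144 and 49758 bp, and after peaks within 1000 bp were merged they were 28961 and 38666 bp, in the same order of broad and short. Of the members, 109 (31.0%, interval 26.4 to 36.0%) lay less than 5 kb from a coding TSS, against 24.9% (interval 23.5 to 26.3%) of short distal peaks. At the other end, 104 (29.5%, interval 25 to 34.5%) lay more than 50 kb away, against 37.2% (interval 35.6 to 38.8%), and 55 (15.6%) more than 100 kb. The intervals of the shares did not meet at 5 kb, though only just, or at 50 kb, and both placed the broad peaks nearer to starts. Upstream of the nearest TSS lay 117 (33.2%, interval 28.5 to 38.3%), and the rest were downstream or inside the gene. The 3 farthest were 2 peaks upstream of Gramd3, at 636188 and 583638 bp, and 1 upstream of Ywhaq, at 612313 bp. At such distances the nearest coding gene is a label of position only.

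The sequence under the broad distal peaks fell between that of short distal peaks and that of promoters. Median GC content was 56.3%, against 51.4% for short distal peaks and 65.6% for broad peaks at a TSS, and the ratio of observed to expected CG dinucleotides was 0.53, 0.33 and 0.83 in the same order. A CpG island was called where any 200 bp had a GC content of at least 50% and a ratio of at least 0.6. Such a stretch is easier to find in a longer peak, so the call was also made in the central 300 bp alone. There, 174 of 352 broad distal peaks (49.4%, interval 44.2 to 54.6%) held an island, 26.3% (interval 24.9 to 27.8%) of short distal peaks and 93.3% of broad peaks at a TSS. The ratio was not spread evenly around its median. Broad distal peaks had a group at low ratios, as the short distal peaks had, and a group near 0.9, as the peaks at a TSS had.

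**Figure D3:**
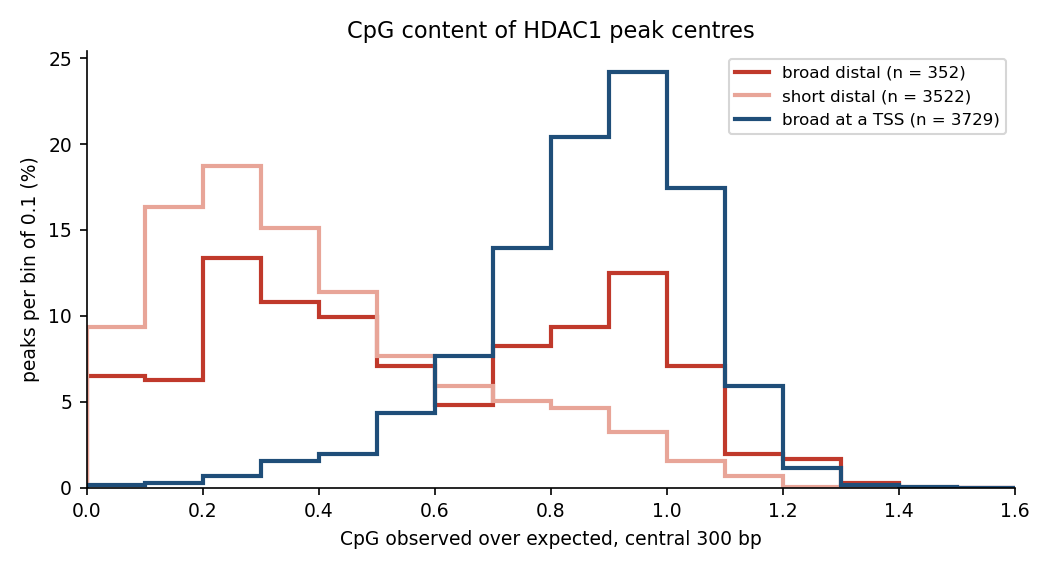
Distribution of the ratio of observed to expected CG dinucleotides in the central 300 bp, as the share (%) of peaks in bins of 0.1, for broad distal (n = 352), short distal (n = 3522) and broad TSS peaks (n = 3729). The broad distal line has a rise at low ratios, where the short distal peaks lie, and another near 0.9, where the TSS peaks lie.

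With the whole peak searched, 233 broad distal peaks (66.2%) held an island and 119 did not, and these differed in where they lay. Those with an island had a median distance of 9546 bp to a coding TSS, and 51 (21.9%, interval 17.1 to 27.6%) lay more than 50 kb away. Those with none had a median distance of 36074 bp, and 53 (44.5%, interval 35.9 to 53.5%) lay more than 50 kb away. An exon lay under 74 (31.8%, interval 26.1 to 38.0%) of the first and 3 (2.52%, interval 0.861 to 7.15%) of the second. All 59 members over a coding exon held an island (interval 93.9 to 100%), while 85 of 146 in introns (58.2%) and 66 of 111 between genes (59.5%) did. Coding sequence is itself rich in GC: 74.4% of the short distal peaks over a coding exon held an island, but 24.9% of those between genes. Of the island peaks 149 (63.9%, interval 57.6 to 69.8%) were nearest to a gene with an HDAC1 peak at its own promoter, and of the peaks with no island 94 (79.0%, interval 70.8 to 85.3%). Short distal peaks had the same order, 64.6% and 72.7%. Among the members with no island were those near Lhx2 (rank 25), Twist1 (rank 3256), Tbx4 (rank 3263), Tle4 (rank 2430) and Cdh11 (rank 1449), the last 2 at 310152 and 197358 bp from the TSS. Those with an island between genes included peaks near Irx5 (rank 711, at a GC content of 62.4%), Foxk1 (rank 37, ratio 0.89) and Hand2 (rank 3091, ratio 0.80).

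Some members lie at starts in a wider annotation. When the comprehensive GENCODE set was used in place of the basic one, 66 members (18.8%, interval 15.0 to 23.2%) overlapped a TSS window. Of the short distal peaks 11.4% did. A TSS lay inside 42 members (11.9%, interval 8.95 to 15.7%) and inside 2.61% of short distal peaks. A longer peak holds a TSS more easily, and the median lengths were 1000 and 300 bp. The part of length in these shares was not tested. The members at Sox9, Dlx2, Emx2, Jarid2 and Tbx1 and the Zfhx3 member at rank 503 overlapped such a window and had no TSS inside. Without those 66, the share of whole peaks with an island was 59.4%. A further 3 members were 95%, 98.7% and 98.8% repeat-masked: 2 at Gm47283 on chromosome Y and 1 at Gm21887 on chromosome X, where near-identical copies can share reads, so their positions are uncertain. The other members were masked over less than 50% of their bases, with a median of 8.02%.

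Short sequence words that are known binding sites were counted on both strands in the central 300 bp, so that the same length was searched for every peak. Short distal peaks had a median length of 300 bp and a first quartile of 200 bp, so the window reached past the shorter of them. The GLI word, GACCACCCA, bound by the transcription factors of Hedgehog signaling, was in 1 broad distal peak (0.284%, interval 0.0502 to 1.59%), 12 short distal peaks (0.341%), 12 broad peaks at a TSS (0.322%) and 0.253% of 32851 RefSeq promoter windows of the same length (GRCm38.p6). The 1 peak was at rank 1181 in intron 6 of Zmiz1, nearest to Ppif, and held a TSS of the comprehensive annotation. Its window chr14:25607600-25607899 follows, on the plus strand of mm10 with capitals for the word in its reverse orientation.
Ppif: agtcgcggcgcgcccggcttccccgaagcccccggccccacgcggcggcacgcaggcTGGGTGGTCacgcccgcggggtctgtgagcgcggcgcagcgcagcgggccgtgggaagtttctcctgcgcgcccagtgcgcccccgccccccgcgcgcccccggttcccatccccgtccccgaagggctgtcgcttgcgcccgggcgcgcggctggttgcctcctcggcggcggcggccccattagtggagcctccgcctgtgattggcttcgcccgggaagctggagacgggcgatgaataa
Over whole peaks the GLI word was in 5 members (1.42%), near Pqlc1, Ppif, AL607142.1, Hmga2 and Fgfr1. The AL607142.1 peak, like the Ppif peak, held a TSS of the comprehensive annotation. The Fgfr1 peak, rank 5055, lay inside the gene of that FGF receptor, 10669 bp from the nearest of its starts.

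The E-box CATNTG, bound by TWIST1 and other basic helix-loop-helix proteins of mesenchyme, was in 134 broad distal peaks (38.1%, interval 33.2 to 43.2%), 51.0% (interval 49.4 to 52.7%) of short distal peaks, 16.0% of broad peaks at a TSS and 39.4% of the promoter windows. The NF-Y word CCAAT was in 82 (23.3%, interval 19.2 to 28.0%), against 31.5% of short distal peaks and 37.4% of promoter windows. The words TGACAG of MEIS, TGTGGT of RUNX and TGTTTAC of FOX proteins were also in fewer broad than short distal peaks, at 13.6% (interval 10.4 to 17.6%) against 19.1%, 13.4% (interval 10.2 to 17.3%) against 17.4% and 2.27% (interval 1.16 to 4.42%) against 5.34%. Promoter windows held them at 19.2%, 16.8% and 3.65%. The GC-rich words went the other way. The SP/KLF word GGGCGG was in 111 (31.5%, interval 26.9 to 36.6%) of broad and 20.3% of short distal peaks, in 65.7% of broad peaks at a TSS and in 35.7% of promoter windows. The TFAP2 word GCCNNNGGC was in 82 (23.3%, interval 19.2 to 28.0%) and 17.0%, in 40.6% at a TSS and in 16.6% of promoter windows. The homeodomain and TFAP2 words read alike on both strands, and apart from the TFAP2 word, whose open letters can hold the NF-Y word, none of the words holds another. The GC content of the windows moved with these counts, at medians of 58.0% for broad and 51.0% for short distal peaks, and its part in them was not tested. The core CTCF word CCACNAGGG was in 9 members (2.56%, interval 1.35 to 4.79%), and the share of short distal peaks was 1.53%, inside that interval, with 1.45% of promoter windows. The share of short distal peaks also fell inside the interval of the broad ones for the homeodomain word TAATTA, which was in 25 members (7.10%, interval 4.86 to 10.3%), 9.97% of short distal peaks and 5.29% of promoter windows. The same held for the HOX13 words CAATAAA (5.11% of members and 4.60% of promoter windows) and CTCGTAAA (1.14% and 0.131%), the PBX-HOX word TGATTNAT (2.84% and 3.22%), the E-box CAGGTG (23.3% and 20.2%), the SOX word ACAATGG (3.12% and 3.66%), the TEAD word CATTCC (15.6% and 14.7%), the ETS word CCGGAAG (2.27% and 8.86%) and the AP-1 word TGACTCA (1.99% and 5.20%). A word is a description of the sequence and not a site of binding.

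The 352 peaks had 308 different nearest coding genes, 1.41% of the 21827 coding genes of the annotation, while 2122 (9.72%) were nearest to a short distal peak. A coding gene counted as having a promoter peak when any HDAC1 peak overlapped one of its TSS windows, which 9619 (44.1%) did. Of the 308 genes, 206 (66.9%, interval 61.4 to 71.9%) had one, and 144 (46.8%, interval 41.3 to 52.3%) had one of 800 bp or more. Among genes nearest to a short distal peak, 64.5% (interval 62.5 to 66.5%) had a promoter peak and 38.1% (interval 36.1 to 40.2%) a broad one. A promoter peak as such was thus about as common beside short distal peaks, and a broad one was more common beside broad distal peaks. The second contrast is one of length, the value on which the members were selected. In 43 members the next peak was within 1000 bp and at a TSS. How much of the contrast comes with the selection was not tested.

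Of the gene lists examined, limb transcription factors had the highest share of genes nearest to a member. Of 64 genes on the list, 27 (42.2%, interval 30.9 to 54.4%) were nearest to at least 1 broad distal peak, with 41 such peaks in all, against 1.41% of all coding genes. The list was chosen with earlier results of these data known, and 1 of the 27, Pkdcc, encodes a kinase and is no transcription factor. The number of its genes nearest to a member was 13 with TSS windows of 5 kb on both sides, 15 at a length limit of 1000 bp and 11 at 1500 bp. Its genes are also widely spaced. The median stretch of chromosome for which a coding gene is the nearest was 216 kb for the list and 47.4 kb for all coding genes, and 81.2% of the list was nearest to a short distal peak, against 9.72%. The part of spacing in these counts was not tested. The share of broad peaks among a gene's distal peaks sets aside how many peaks it has. It was 18.1% (41 of 226, interval 13.7 to 23.7%) for limb transcription factors and 9.09% (352 of 3874, interval 8.22 to 10%) over all genes. For T-box genes it was 22.4% (11 of 49, interval 13.0 to 35.9%), for homeobox genes 12.6% (27 of 215, interval 8.78 to 17.7%), for forkhead genes 11.4% and for SOX genes 9.52%. For Polycomb genes it was 18.4% (9 of 49, interval 9.98 to 31.4%), and 8 of those 9 were at Bcor. The limb and T-box intervals lay above the overall value, and all T-box genes with a member but Tbx1 are on the limb list. The Polycomb interval did too, but it counts neighbouring peaks of Bcor as separate units and so does not describe the list. The limb and T-box intervals also count neighbouring peaks of 1 gene as separate units. The 41 limb peaks were at 27 genes and the 11 T-box peaks at 6, with runs of 3 members at Tbx5 and at Tbx15. The effect of this on the 2 intervals was not tested. Over the transcription factor lists together, 57 of 352 broad distal peaks (16.2%, interval 12.7 to 20.4%) and 9.97% (interval 9.02 to 11.0%) of short distal peaks were nearest to a listed gene. A promoter peak was present at 62 of the 64 limb transcription factors (96.9%).

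**Figure D4:**
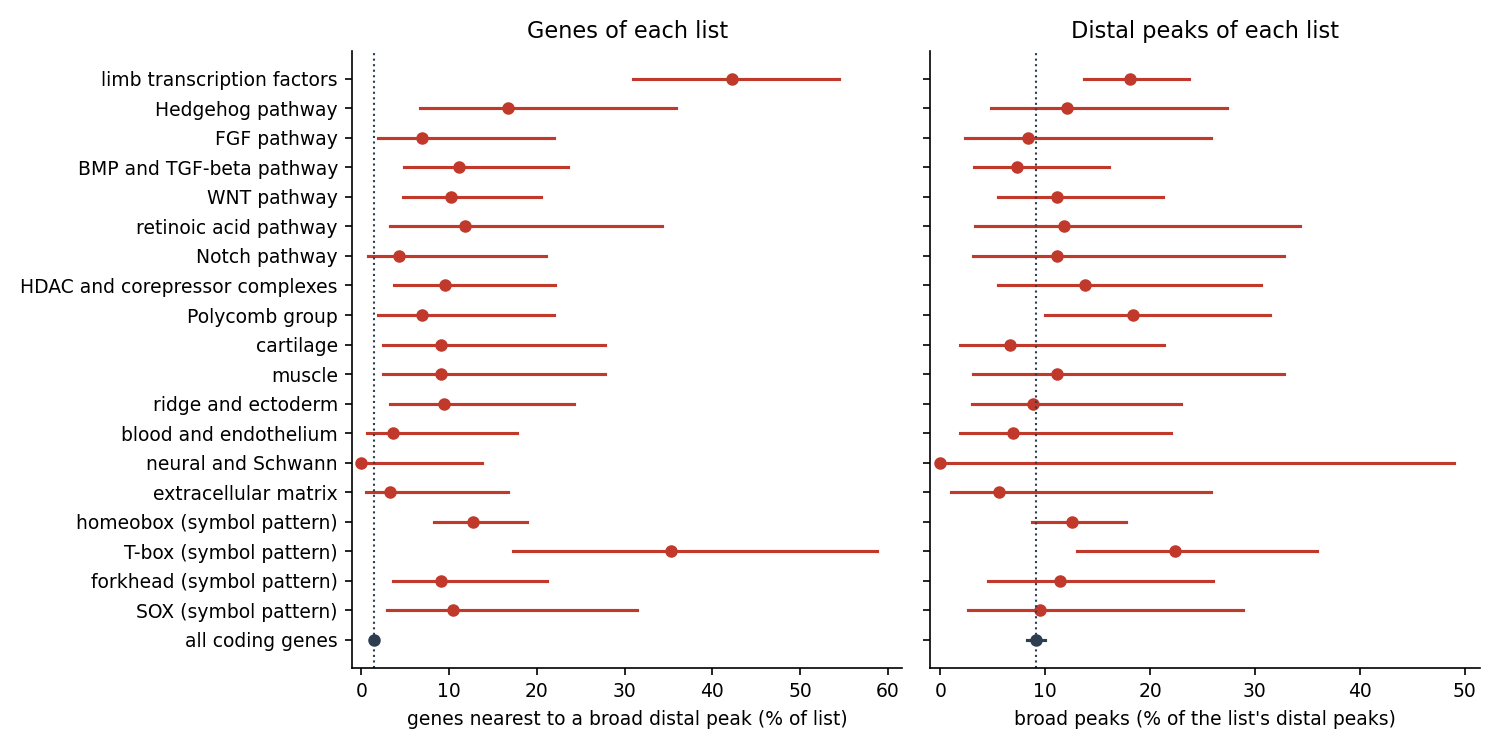
Left, share (%) of the genes of each list that were nearest to at least 1 broad distal peak; right, share (%) of broad peaks among the distal peaks nearest to those genes. Points are shares, lines are 95% Wilson intervals, and dotted lines mark all coding genes at 1.41% and 9.09%. The intervals of limb transcription factors (42.2% and 18.1%), T-box genes (35.3% and 22.4%) and Polycomb genes (6.90% and 18.4%) lie to the right of both lines. Those of the other lists cross at least 1 of them. Of the 9 broad Polycomb peaks, 8 are at Bcor, so the Polycomb interval at right does not describe the list. In every list, the lines at right count neighbouring peaks of 1 gene as separate units.

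Of the limb transcription factors, the best-ranked peaks were near Lhx2 (rank 25) and Lmx1b (rank 282), LIM-homeobox genes of distal outgrowth and of dorsal identity. Tbx2 (rank 569, in intron 5), Tbx5 (rank 714), Tbx15 (rank 1405), Tbx4 (rank 3263, upstream of the hindlimb gene) and Tbx3 (rank 4713, over a coding exon) followed among the T-box genes. Irx5 had a peak 102201 bp downstream at rank 711. Hoxa11 had a 3450 bp peak 5540 bp upstream of its nearest start at rank 1056, and Hoxd13, the gene of the digits, had a 900 bp peak over its untranslated exon at rank 6211. Hand2, which sets up the posterior limb bud, and Twist1, a mesenchymal gene, had intergenic peaks 7217 and 2879 bp downstream. The ridge genes Sp8 and Sp9 had peaks over their own exons at ranks 8161 and 1773. Sp8 had no promoter peak.

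The shares of signaling genes nearest to a member ran from 4.35% for the Notch pathway to 16.7% for the Hedgehog pathway, against 1.41% of all coding genes. The interval of the Notch share held 1.41%, and those of the other pathways lay above it. Median stretches were 50.9 kb for Notch and 121 to 180 kb for the other pathways, against 47.4 kb. Of these lists, 39 to 62.5% of genes were nearest to a short distal peak, against 9.72%. The part of spacing in the counts of genes nearest to a member was not tested. In the Hedgehog pathway 4 of 24 genes were nearest to one: Gas1, a co-receptor (rank 396, 90185 bp upstream); Ptch1, the receptor and a target of the pathway (rank 3964, in intron 16, 950 bp long); Hhat, which acylates the ligand (rank 7328); and Scube1 (rank 8292). The promoter peaks of Gas1 and Ptch1 were at ranks 18 and 46, and those of Hhat and Scube1 at ranks 12179 and 7572. In the WNT pathway 6 of 59 genes were: the ligands Wnt11 and Wnt10a, the receptor Ror2, and the nuclear factors Tcf7l1, Lef1 and Tcf7l2, of which Tcf7l2 had 2 peaks in its introns. The Wnt11 peak, rank 455, lay in an intron of Uvrag, 118155 bp from Wnt11. In the BMP pathway 5 of 45 were, and 3 of these were Id1, Id2 and Id3, targets that encode inhibitors of helix-loop-helix proteins, at 2399, 2060 and 2298 bp from their starts. The others were the inhibitor Smad7 and the ligand Gdf11. In the FGF pathway the receptor Fgfr1 and the inhibitor Il17rd were, 2 of 29; in the retinoic acid pathway the receptor Rara and the enzyme Rdh10, 2 of 17; and in the Notch pathway the target Hes1, with 2 peaks, 1 of 23. The broad share among the distal peaks of these pathways ran from 7.35% for BMP to 12.1% for Hedgehog, with intervals that all held 9.09%.

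Lists of corepressor and chromatin genes, and of genes of other cell types in the bud, had shares of 3.33 to 9.52% where any gene was nearest to a member, against 1.41% of all coding genes. The intervals of extracellular matrix (0.591 to 16.7%) and of blood and endothelium (0.633 to 17.7%) held 1.41%. These lists too are widely spaced, with median stretches of 61.6 to 272 kb against 47.4 kb, and the part of spacing was not tested. Apart from Polycomb, the intervals of their broad share among distal peaks all held 9.09%. Of 42 genes of HDAC and corepressor complexes, 4 were nearest to a member, namely Tbl1xr1, Tle4, Tle3 and Chd3, although 97.6% of the list had a promoter peak. Of 29 Polycomb genes, Bcor and Jarid2 were. Cartilage was represented by Sox9 and Col2a1 (2 of 22), muscle precursors by 2 of 22 genes, Lbx1 among them, ectoderm and ridge by Dlx2, Tfap2c and Sp8 (3 of 32), blood and endothelium by Mecom with 2 peaks (1 of 28), and extracellular matrix by Cdh11 (1 of 30). Of 24 neural and Schwann cell genes none was, an interval of 0 to 13.8%, and 12.5% of them were nearest to a short distal peak. Ribosomal protein genes, most of which have a promoter peak (87.3%), had 1 of 79 (1.27%), and the interval of 0.224 to 6.83% held 1.41%. Olfactory receptor genes had 1 of 1091 (0.0917%, interval 0.0162 to 0.517%), Olfr267, where the peak at rank 674 lay 114273 bp from the gene. These 2 lists are closely spaced, with median stretches of 21.8 kb for ribosomal protein and 22.5 kb for olfactory receptor genes, against 47.4 kb. The part of spacing in their counts was not tested either.

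Most genes had a single broad distal peak. Of the 308, 276 had 1, 26 had 2, and 4 had 3 (Auts2, Snai1, Tbx15 and Tbx5). Lmx1b had 4 and Bcor had 8. Within 50 kb of each other, 73 members formed 31 runs. The longest run was at Bcor, the gene of a corepressor of BCL6 that is part of a Polycomb complex, with 7 members between chrX:12076800 and chrX:12156149, all in intron 1. They were 850 to 1350 bp long at ranks from 2190 to 10449, and every one held a CpG island, with a GC content between 60.1% and 63.7%. The eighth lay past the other end of the gene. Bcor was also the nearest gene of 18 short distal peaks and had 4 promoter peaks. The best-ranked promoter peak, rank 653, was at a start inside the gene, 79.1 to 82.1 kb from its 5′ end. It lay within the stretch of the 7 members, so some of them flank that start.

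The other genes with several members looked different. At Lmx1b, 2 members lay about 60 and 74 kb upstream (59989 and 74239 bp), 1 at 5039 bp upstream in the noncoding gene C130021I20Rik, and 1 of 2100 bp in intron 2. Only the intronic peak held an island, and it also held a TSS of the comprehensive annotation. At Snai1, a gene of mesenchymal identity, the 3 members lay in intron 2 and at 4755 and 25355 bp downstream, and none held an island, with CG ratios of 0.22, 0.19 and 0.33. At Tbx5, members of 1350 and 3750 bp lay 36214 and 28414 bp upstream and another of 2600 bp lay 6337 bp downstream of the nearest start in intron 5, directly next to the promoter peak. All of them held an island. At Tbx15 the 3 members were in the gene, at ranks 1405, 4937 and 7904, and the last held no island. At Auts2 they lay in introns at ranks 3208, 5809 and 8205. The promoter peaks of Lmx1b, Tbx15, Tbx5 and Auts2 ranked 60, 84, 173 and 408, and those of Bcor and Snai1 653 and 884.

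**Figure D5:**
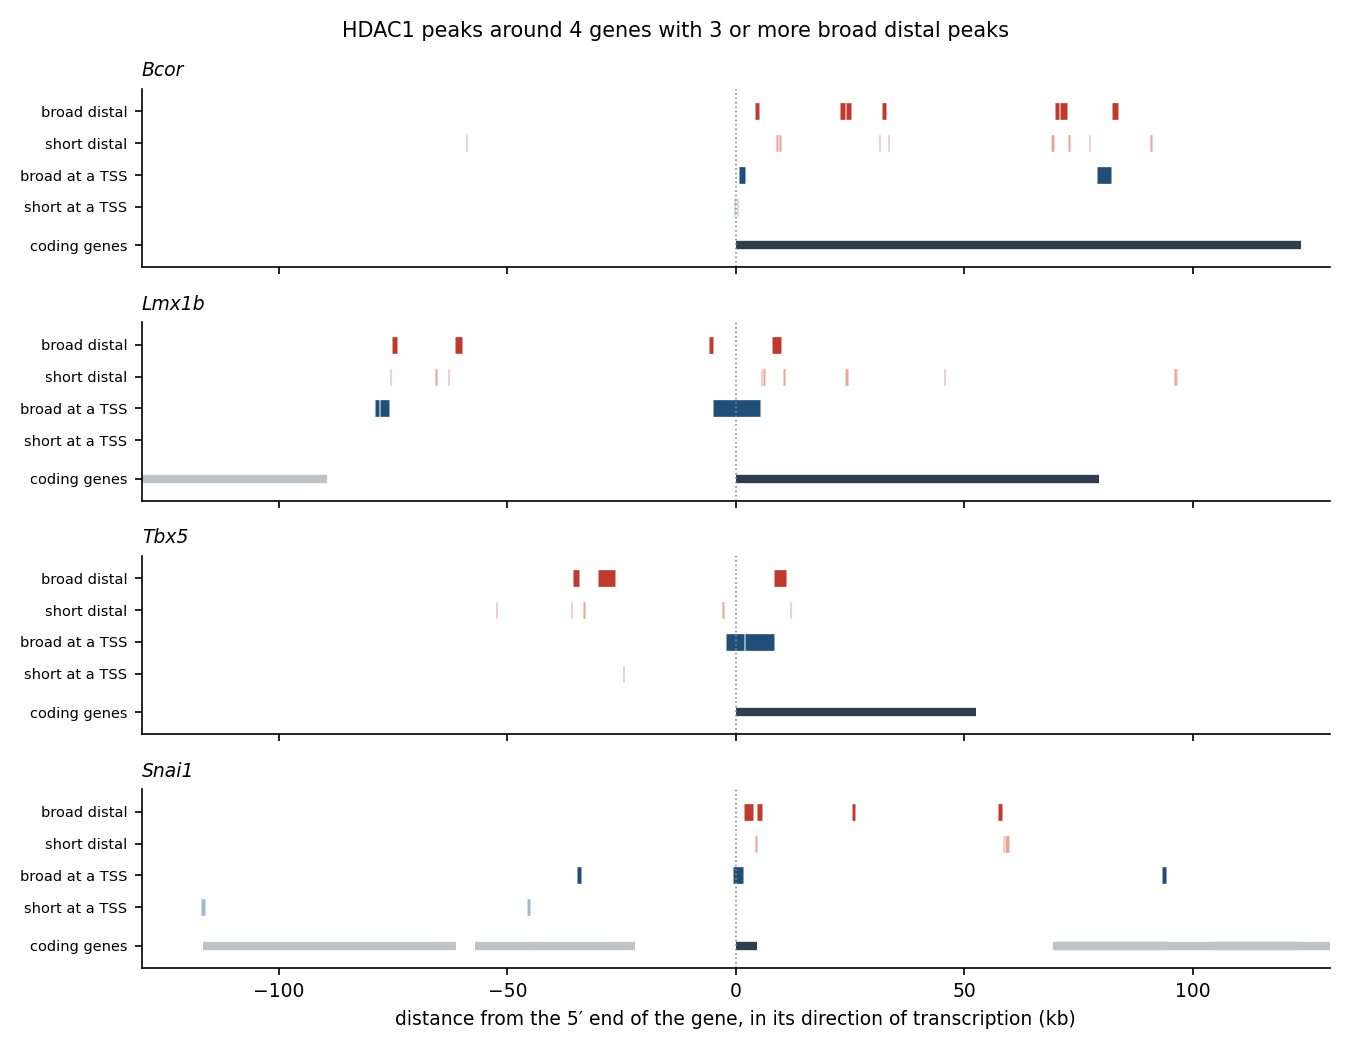
HDAC1 peaks within 130 kb of the 5′ end of Bcor, Lmx1b, Tbx5 and Snai1, by distance (kb) in the direction of transcription, 1 row for each class of peak and 1 for coding genes (dark, the gene named; grey, others). The 7 broad distal peaks of Bcor lie inside the gene, those of Lmx1b and Tbx5 lie on both sides of the start, and those of Snai1 lie downstream. The fourth Snai1 bar is nearest to Ube2v1.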

How the data were processed

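HDAC1 ChIP-seq of pooled wild-type E11.5 limb buds was used (4 HDAC1 ChIP samples and 3 inputs). The submitters' processing notes name Bowtie2 2.2.5 and mm10, and the paper's methods name CisGenome 2.1.0, with peaks at a false discovery rate below 0.05. The authors deposited 1 list of coordinates (no score, count or value for a sample), with 0 columns of per-sample values. A scored version of the list, in the study's supplementary material, was not used here. Rows were read as 1-based with both ends included, since all lengths are then multiples of 50 bp, and row order was used as rank.

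Peaks were placed with GENCODE M21 basic and comprehensive annotation and the GRCm38 sequence. Overlap needed 1 bp. The members and gene lists were chosen with earlier results of these data known. Genes were named by fixed rules (the 10 longest and best-ranked peaks, the 3 last-ranked and farthest, genes with most members, and list genes nearest to a member), and a few of the genes so chosen are not reported here. The procedures were checked on simulated intervals. Shares have 95% Wilson intervals, and no test between samples was possible. Python 3.11.15, numpy 2.4.6, pandas 2.3.3, pysam 0.24.0 and matplotlib 3.10.9 were used.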

Additional observations from a re-analysis of the deposited data

How the results depend on the processing

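No paired analysis was possible because all samples share 1 set of coordinates, and leaving out replicates in turn could not be done either. The number of members was 678 at a length limit of 600 bp, 189 at 1000 bp, 65 at 1500 bp and 218 with TSS windows of 5 kb on both sides; it was 483 with coding TSS only, 499 after peaks within 1000 bp were merged, 285 among the first 7674 peaks and 301 if the coordinates were 0-based. The 5 kb windows moved the intergenic share to 37.6%, the exon share to 13.8% and the median distance to 36144 bp. Merging moved them to 38.5%, 16.6% and 28961 bp, and median GC content to 54.3%. The limits of 1000 and 1500 bp moved the median distance to 9555 and 9445 bp, and the latter the intergenic share to 26.2%. Coding TSS only moved GC content to 57.9%. Any overlap in place of the midpoint moved the exon share to 28.1%. The comprehensive annotation, an alternative chosen after the data were seen, moved the intergenic share to 37.1% and GC content to 54.7%. Of the comparisons of these 7 results with an alternative, 49 stayed within the interval or 1.5 times of the value reported and 18 did not. Limb transcription factor genes nearest to a member, 27 in the report, numbered 32 at 600 bp, 15 at 1000 bp, 11 at 1500 bp and 13 with 5 kb windows. Over whole peaks the CATNTG word rose to 79.0% and the GLI word to 1.42%. Weaker HDAC1 sites can fall below the peak threshold, and the list gives no depth to judge this by.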
